A study of Saccharomyces cerevisiae with 3 samples.

Results

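The genes described here encode the machinery that carries proteins into yeast mitochondria and folds them there. They were chosen by symbol, as 35 listed members in 4 compartments: 12 of the outer membrane, 7 of the intermembrane space, 11 of the inner membrane and 5 of the matrix. Named spots were found for 31 of them among the 5539 named genes of the array, each with 2 spots. TOM5, which encodes a small subunit of the outer membrane pore, and TIM8, TIM9 and TIM10, which encode small chaperones of the intermembrane space, were not analysed here.

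Each of the 3 two-colour arrays carried total RNA of a baker's yeast YAP1 deletion mutant in Cy3 and total RNA of the wild type in Cy5. Cells of both strains had been treated with 0.2 mM arsenite, As(III), for 1 h, so arsenite is common to both sides of every ratio and no unstressed cells entered the comparison. Yap1 turns on antioxidant and detoxification genes when yeast meets oxidants or metals. The labels call the arrays replicates 1 to 3 and name neither the strain background nor the source cultures, so p-values speak only of the spread from array to array, some or all of which may be technical. With 3 arrays the precision is low.

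Nearly all mitochondrial proteins are made in the cytosol and must be imported. The TOM complex of the outer membrane is the common gate. From there, proteins with a cleavable presequence pass through the TIM23 complex of the inner membrane and are pulled in by a motor built around mitochondrial Hsp70, carrier proteins are inserted by the TIM22 complex, barrel-shaped outer membrane proteins are inserted by the SAM complex, and cysteine-rich proteins of the intermembrane space are trapped there by the Mia40 disulfide relay. In the matrix the presequence is removed by a peptidase and the chaperonin helps the protein to fold.

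The values are deposited log ratios of the 2 channels, averaged over the 2 spots of a gene, minus the median of the array over the named genes. Neither the base of the logarithm nor the direction of the ratio is given in the sources used here. Genes are therefore placed on the high or the low side of the array median, with no fold change, and neither strain is named as holding more of a transcript. In the table as it stands, 98.4, 98.9 and 96.9% of genes had a ratio below 0 on replicates 1, 2 and 3, and all 31 import genes lay below 0 on each array. The dyes were not swapped on any array, so dye and strain cannot be told apart. YAP1 itself had values of −1.43, −0.22 and −0.74, the second of them close to the middle of its array, and was not used to set the direction.

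The import genes spread to both sides of the median, and 6 of 31 (19.4%) passed the test. TOM71, TIM44, ERV1 and TOM22 were high, whereas TIM18 and SAM35 were low. Among all named genes 28.5% passed at an adjusted p of 0.05 (limma, Benjamini-Hochberg over 5539 genes), with 16.0% of all named genes high and 12.5% low, so the import genes were not called more often than the genes of the array at large. The median of the 31 means was 0.27, against −0.02 for all named genes, and it was 0.19, 0.30 and 0.17 on the 3 arrays. The means ran from −0.93 to 0.96. Fewer genes were called without replicate 2 or without replicate 3, among the import genes and over the whole array alike. Without replicate 2 only TOM71 and ERV1 passed, when 538 genes of the whole array were called high and 351 low. Without replicate 3 limma called 0 of the 31, with 7 high and 4 low at an unadjusted p under 0.05. In that setting 275 genes of the whole array were called high and 48 low. The sides also hold only against the array median: set against spots without a gene symbol at fixed low positions of the array, 24 of the 31 were called high and 0 low.

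**Figure D1:**
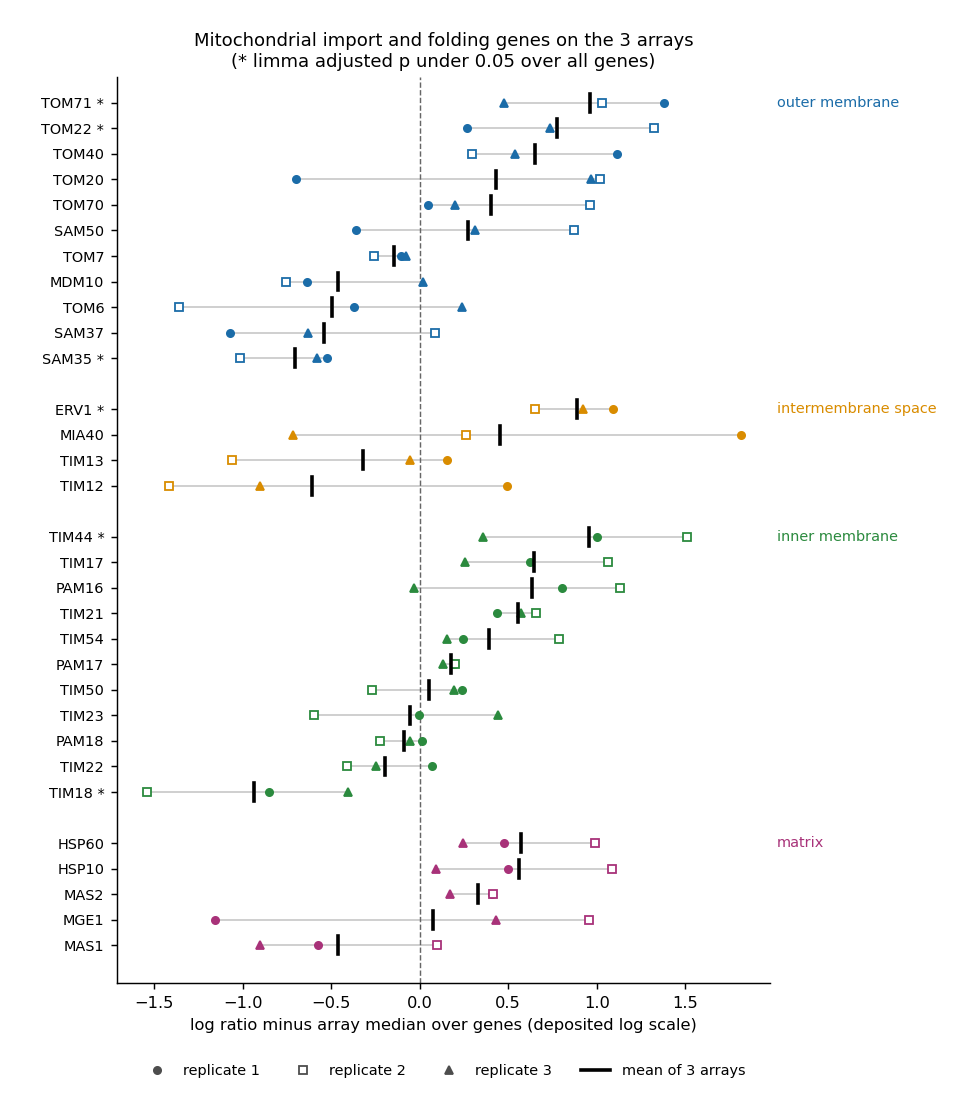
Log ratio minus the array median over genes (x axis, deposited log scale) for each of the 31 import genes, grouped by compartment and ordered by mean. Circles, squares and triangles are replicates 1, 2 and 3, black bars are their means, grey lines span the 3 arrays, and asterisks mark the 6 genes past the threshold, 4 high and 2 low.

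At the entry gate, the receptors of the outer membrane had means above the array median. TOM71 (YHR117W), which encodes a less abundant relative of the receptor Tom70, had values of 1.38, 1.03 and 0.47 on replicates 1, 2 and 3. It was high on every array, and ranked at percentiles 93.4, 86.3 and 79.04 of the named genes on replicates 1, 2 and 3. Its mean was 0.96 ± 0.45 (SD, n = 3; limma adjusted p = 0.00954), and with the first spot of each gene only it narrowly missed the threshold (limma adjusted p = 0.0508). Its relative TOM70, the receptor for carrier precursors, had values of 0.05, 0.96 and 0.20 and did not pass, at 0.40 ± 0.49 (SD, n = 3; limma adjusted p = 0.236). TOM71 minus TOM70 was 1.33, 0.07 and 0.28, so the pair stood well apart on replicate 1 and close together on the other two arrays. Such related genes may share RNA between their spots, and the values of either are uncertain to that extent. TOM20, the receptor for presequences, had values of −0.70, 1.02 and 0.97. It lay low on replicate 1 and high on the other two arrays, and its mean of 0.43 ± 0.98 (SD, n = 3) did not pass.

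Of the 4 measured genes of the pore 1 passed. TOM22, which encodes the central receptor and organiser of the complex, had values of 0.26, 1.32 and 0.73, high on all arrays but only a little so on replicate 1. Its mean was 0.77 ± 0.53 (SD, n = 3; limma adjusted p = 0.0326). The call was among the least stable, holding in 6 of 13 other settings: it was lost with the first spot (limma adjusted p = 0.0816), the last spot (limma adjusted p = 0.104) or the filter on spot differences (limma adjusted p = 0.0621). Without replicate 2 the mean was 0.50 (limma adjusted p = 0.329). TOM40, which encodes the channel-forming barrel, had values of 1.12, 0.30 and 0.54. All of these were on the high side, and the mean of 0.65 ± 0.42 (SD, n = 3) narrowly missed the threshold (limma adjusted p = 0.0575). The small subunit genes TOM6 and TOM7 had means below the array median. TOM6 had values of −0.37, −1.36 and 0.24, and TOM7 had values of −0.11, −0.26 and −0.08. Neither passed. TOM6 lay on both sides of the median, high on replicate 3, and TOM7 lay close to the middle of every array.

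The SAM complex, which inserts barrel proteins into the outer membrane, had 3 of 4 genes with a mean below the array median, and 1 of them passed. SAM35, whose product recognises the sorting signal of barrel proteins, had values of −0.52, −1.01 and −0.58. It was on the low side of all arrays, with a mean of −0.70 ± 0.27 (SD, n = 3; limma adjusted p = 0.0348), and with the last spot only it did not pass (limma adjusted p = 0.174). SAM37, for the subunit that helps release the barrel, had values of −1.07, 0.08 and −0.63. MDM10, shared between SAM and the tether to the endoplasmic reticulum, had values of −0.64, −0.75 and 0.02. Each lay near the median on 1 array and low on the other two, and neither passed. SAM50, the barrel at the core of the complex and a gene whose 2 spots differed little, had values of −0.36, 0.87 and 0.31 and went both ways. The repeated spots of SAM35, SAM37 and MDM10 differed by 0.648, 1.09 and 0.712 on average, against a median of 0.387 over all genes. Each of these genes had 5 spot values below the array medians and 1 above. For SAM35 the gap was widest on replicate 3, with spots at −1.19 and 0.03. What part the scatter has in these low values was not tested.

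In the intermembrane space 1 of the 4 measured genes passed. ERV1, the sulfhydryl oxidase that keeps Mia40 oxidised, had values of 1.09, 0.65 and 0.92. It was high on every array, its 2 spots differed by only 0.0692, and its mean was 0.89 ± 0.22 (SD, n = 3; limma adjusted p = 0.0105). MIA40, the oxidoreductase that forms disulfides in incoming proteins, had values of 1.81, 0.26 and −0.71. This was the highest value of any import gene on replicate 1 and among the lowest on replicate 3. Its 2 spots differed by 0.22 on average, far less than its arrays did. The mean of 0.45 ± 1.27 (SD, n = 3) did not pass, and MIA40 ranked at percentiles 96.5, 61.3 and 10.3 of the named genes. TIM13, one of the small chaperones that escort membrane proteins across the space, had values of 0.15, −1.06 and −0.06 and did not pass. TIM12, the small chaperone that docks on the TIM22 complex, had values of 0.49, −1.42 and −0.90. It also put replicate 1 apart from the other arrays: it did not pass over all 3 (limma adjusted p = 0.149), whereas without replicate 1 its mean of −1.16 passed, as did that of TOM20 at 0.99.

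The TIM22 complex, which inserts carrier proteins into the inner membrane, held the import gene with the lowest mean. TIM18, which encodes a subunit related to a succinate dehydrogenase anchor, had values of −0.85, −1.54 and −0.40. All 6 of its spot values lay below the array medians, which no other import gene showed, and its mean was −0.93 ± 0.57 (SD, n = 3; limma adjusted p = 0.0142), and with the first spot only it did not pass (limma adjusted p = 0.0899). TIM22, the channel of the complex, had values of 0.07, −0.41 and −0.25. TIM54, the subunit exposed to the intermembrane space, had values of 0.24, 0.78 and 0.15 and lay on the high side of all arrays. Neither passed, and the 4 genes of the complex, TIM12 included, had a median of −0.40.

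The presequence route through the inner membrane lay mostly at or above the median. TIM17, which forms the translocation path, had values of 0.62, 1.06 and 0.26. TIM21, which links the TOM and TIM23 complexes, had values of 0.44, 0.66 and 0.57. Both were high on all arrays, with means of 0.65 (limma adjusted p = 0.057) for TIM17 and 0.56 (limma adjusted p = 0.0803) for TIM21, and neither passed. TIM23, the partner of TIM17, had values of −0.01, −0.60 and 0.44 and went both ways. TIM50, the receptor that takes over presequences from TOM, had values of 0.24, −0.27 and 0.19 and also straddled the median.

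Of the 5 genes of the import motor, TIM44 passed. Its product ties mitochondrial Hsp70 to the channel, and its values were 1.00, 1.51 and 0.36. It was high on every array, with a mean of 0.96 ± 0.58 (SD, n = 3; limma adjusted p = 0.0127) and a mean spot difference of 0.121. PAM16, which holds the J-protein of the motor in check, had values of 0.81, 1.13 and −0.03. It was high on the first 2 arrays, at the median on replicate 3, and did not pass at 0.63 ± 0.60 (SD, n = 3; limma adjusted p = 0.0794). PAM18, which encodes that J-protein and binds Pam16, had values of 0.01, −0.22 and −0.06. PAM17, for a subunit that organises the motor, had values of 0.19, 0.20 and 0.13. Both kept near the middle of all arrays. MGE1, the nucleotide exchange factor of the Hsp70, had values of −1.16, 0.95 and 0.43. It was low on replicate 1 and high on the other two, with a large mean spot difference of 0.804, and its mean was 0.08 ± 1.10 (SD, n = 3).

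In the matrix, 4 of the 5 genes had a mean above the median, and limma called 0 of the 5, with 2 at an unadjusted p under 0.05. HSP60, the chaperonin, had values of 0.48, 0.99 and 0.24. Its co-chaperonin HSP10 had values of 0.50, 1.09 and 0.09. Both were highest on replicate 2 and lowest on replicate 3, with means of 0.57 ± 0.38 for HSP60 and 0.56 ± 0.50 for HSP10 (SD, n = 3 each; limma adjusted p = 0.0873 and 0.104). HSP60 minus HSP10 was −0.02, −0.10 and 0.15, so the partner genes kept close to each other on each array. The 2 subunits of the processing peptidase did not. MAS2 had values of 0.41, 0.41 and 0.17, all on the high side, while MAS1 had values of −0.58, 0.10 and −0.90. MAS2 was above MAS1 on every array, by 0.79 ± 0.42 (SD, n = 3), and neither passed. With the median of each block of the array subtracted, the mean of MAS1 was −0.90 and passed (limma adjusted p = 0.0104).

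Set side by side, the compartments did not keep one order across the arrays. The inner membrane genes had medians of 0.24, 0.20 and 0.15 on replicates 1, 2 and 3, above the array median by a like amount each time. The matrix genes had medians of 0.41, 0.95 and 0.17, also above it on each array. The outer membrane genes had −0.36, 0.30 and 0.24, and the intermembrane space genes 0.79, −0.40 and −0.39. On replicate 1 the outer membrane and intermembrane space genes thus lay on opposite sides from those they took on replicates 2 and 3. Among 11 outer membrane genes 2 were called high and 1 low, and among 11 inner membrane genes 1 was called in each direction. The intermembrane space rests on 4 genes and the matrix on 5, and the medians are given as descriptions with no test.

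**Figure D2:**
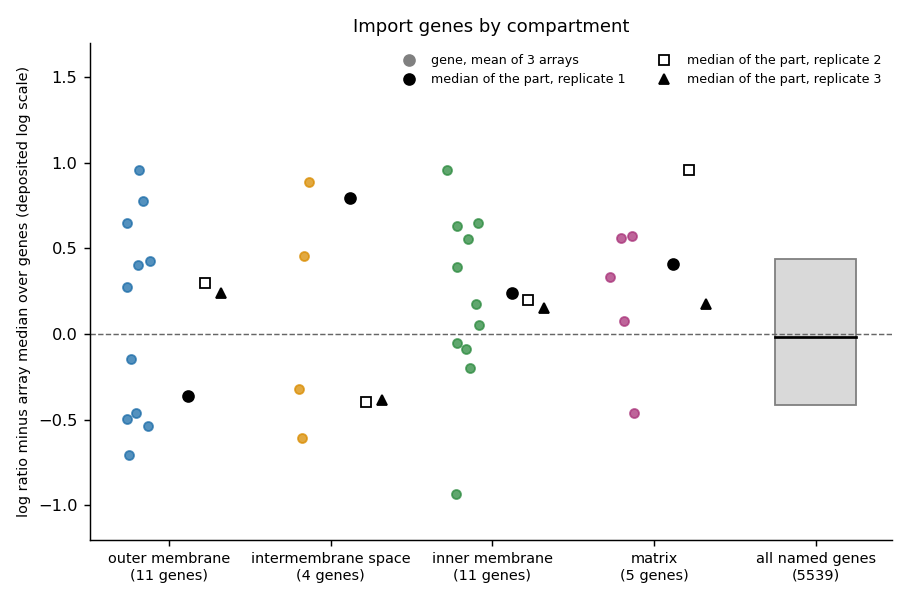
Log ratio minus the array median over genes (y axis, deposited log scale) by compartment. Coloured points are genes as means of 3 arrays, black symbols are the median of the compartment on each array, and the grey box gives the quartiles and the median of all 5539 named genes. The inner membrane medians lie within 0.15 to 0.24, whereas those of the intermembrane space run from −0.40 to 0.79.

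The median SD between arrays was 0.49 for the import genes and 0.359 for all named genes, a difference that was not tested. Of the 31, 16 (51.6%) lay on the same side of the median on all 3 arrays, against 58.9% of all genes. For both sides together the share was thus near that of the array at large. By side it was uneven, with 13 of the 31 high and 3 low, against 29.7% of all genes high and 29.2% low. This split was not tested. Across the 31 genes the Pearson correlation was 0.354 between replicates 1 and 2, 0.173 between 1 and 3 and 0.540 between 2 and 3, and across all named genes it was 0.631, 0.623 and 0.736. These are descriptions across genes of the same arrays, and genes are not independent replicates. MIA40, TIM12, MGE1 and TOM20 were the genes whose 3 values spread farthest, and for each of them replicate 1 stood apart from replicate 2.

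**Figure D3:**
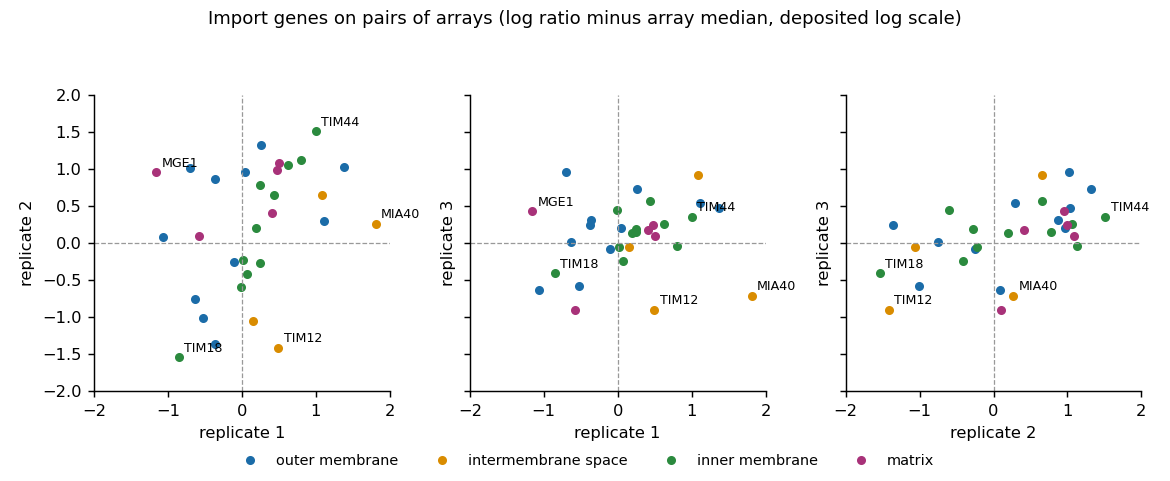
Each of the 31 import genes on pairs of arrays, as log ratio minus the array median (both axes, deposited log scale), coloured by compartment. TIM44 lies high and TIM18 low in every panel, while MIA40 and TIM12 are high on replicate 1 and low on replicate 3.

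On these arrays the ratio of a gene moved with the scatter between its repeated spots. Genes were split into 10 groups of equal size by this scatter. In the group whose spots agreed best the median of the gene means was 0.59, and in the group whose spots agreed worst it was −0.52. Of the 31 import genes, 12 fell in the 3 groups with the least scatter, among them ERV1 and TIM44. As an added setting, chosen with the data in view, the median of each of the 10 groups was subtracted on each array. ERV1 then had a mean of 0.28 (limma adjusted p = 0.408), TIM44 0.34 (limma adjusted p = 0.307), TOM22 0.65 (limma adjusted p = 0.0835) and SAM35 −0.41 (limma adjusted p = 0.196), and none of these passed. TOM71 at 0.94 (limma adjusted p = 0.0203) and TIM18 at −1.05 (limma adjusted p = 0.0192) still passed, when 633 of all genes were called high and 491 low. HSP60, with a mean spot difference of 0.081, moved to −0.04 in that setting, while HSP10 was at 0.28. Spots also differed between blocks of the array, and ERV1, TOM71 and TIM21 all lay in block 45 of 48. With block medians subtracted, ERV1 had a mean of 0.59 (limma adjusted p = 0.0555), TIM44 0.64 (limma adjusted p = 0.0516) and SAM35 −0.43 (limma adjusted p = 0.148), while TOM71 at 0.66 (limma adjusted p = 0.0448), TOM22 at 0.71 (limma adjusted p = 0.0308) and TIM18 at −0.76 (limma adjusted p = 0.0275) passed.

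**Figure D4:**
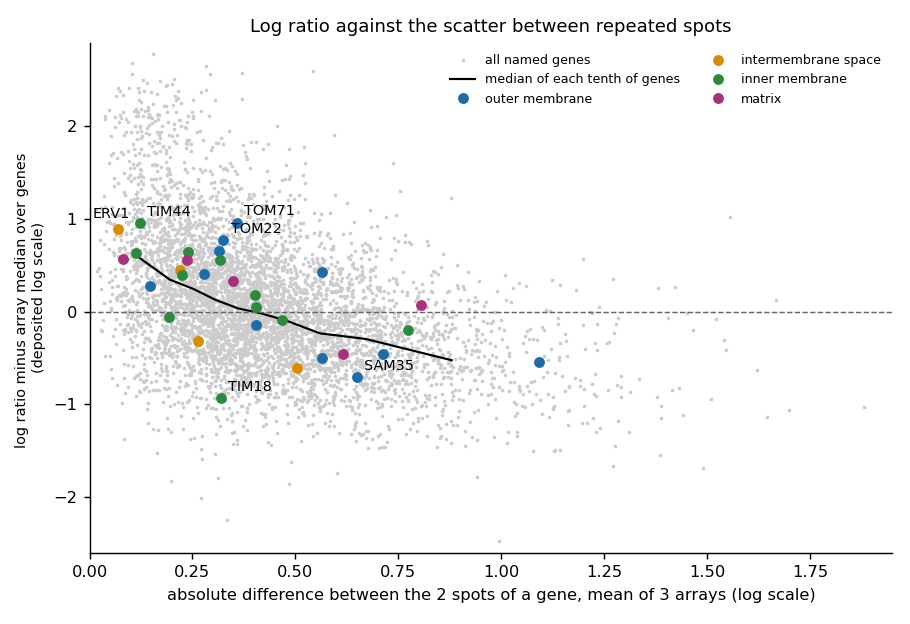
Mean log ratio minus the array median (y axis, deposited log scale) against the absolute difference between the 2 spots of a gene, averaged over 3 arrays (x axis, log scale units). Grey points are all named genes, the line joins the medians of 10 groups of genes ordered by this difference and runs from 0.59 to −0.52, and coloured points are the import genes, with the 6 past the threshold named. TOM71 lies above and TIM18 below the line, while ERV1 and TIM44 lie at the end where genes in general are high.

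Other genes of mitochondrial biogenesis were taken from lists of the same pathway, and 50 of 53 were measured. Of these, 4 (8%) were called high, 10 (20%) were called low and 36 missed the threshold, with a median of −0.03. The shares over all named genes were 16.0% high and 12.5% low. Without replicate 2 the calls were 1 high and 4 low (538 and 351 of all genes). Without replicate 3 limma called 0 of the 50 (275 high and 48 low of all genes), with 5 high and 11 low at an unadjusted p under 0.05. Mitochondrial Hsp70, the ATPase of the import motor and the partner of Tim44, is encoded by SSC1. It had values of 0.97, 0.99 and 0.14 and passed on the high side at 0.70 ± 0.48 (SD, n = 3; limma adjusted p = 0.0457). Its close copy ECM10 had values of 0.43, 1.35 and 0.26 and did not pass (limma adjusted p = 0.0598), and the pair may share RNA between spots. MCX1, for a matrix unfoldase of the Clp type, also passed on the high side at 0.85 ± 0.45 (SD, n = 3; limma adjusted p = 0.0179). In that list 2 were called low. JAC1, a J-protein gene which serves iron-sulfur cluster assembly, had values of −1.23, −1.10 and −0.82 (limma adjusted p = 0.00391), and MDJ2, an inner membrane J-protein related to Pam18, had −0.79, −0.59 and −0.57 (limma adjusted p = 0.0445). All 3 arrays agreed closely for both. MDJ1, which encodes the main J-protein of the matrix, had values of 0.38, −0.07 and 0.22 and did not pass (limma adjusted p = 0.598).

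At the outer membrane, the cytosolic J-protein genes lay far apart. XDJ1, whose product docks on the TOM complex, had the lowest mean of the pathway genes, with values of −1.39, −1.14 and −1.44 (limma adjusted p = 0.00068) and a large mean spot difference of 0.767. DJP1, whose product assists protein import into peroxisomes, had values of 0.72, 0.52 and 1.47 and passed on the high side (limma adjusted p = 0.0144). MIM1, which inserts helical outer membrane proteins such as the receptors, passed on the low side at −0.86 ± 0.83 (SD, n = 3; limma adjusted p = 0.0342), with −1.77 on replicate 1 and −0.15 on replicate 3. Its mean spot difference was 0.576. POR1, the abundant barrel protein of the outer membrane, was close to the median at −0.04.

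The peptidases that trim imported proteins had a median of −0.41, and 6 of 7 had a mean below the array median. Their median was −0.88, −0.33 and −0.18 on replicates 1, 2 and 3, so it was farthest from the middle on replicate 1. SOM1, a subunit of the inner membrane peptidase, passed at −0.94 (limma adjusted p = 0.0156), as did PCP1, the rhomboid protease, at −0.83 (limma adjusted p = 0.0155). Among quality control proteases and prohibitins 1 of 9 passed, PHB2 at −0.78 (limma adjusted p = 0.021), while its partner PHB1 was at 0.22 and did not pass. Among inner membrane accessory factors COX18, an insertase of the Oxa1 type, passed at −0.77 (limma adjusted p = 0.021) and SHE9 at −0.78 (limma adjusted p = 0.0267), 2 of 7. Among factors and substrates of intermembrane space oxidation, 1 of 7 passed on each side: CYC1, for iso-1-cytochrome c, at 0.77 (limma adjusted p = 0.022) and CMC1, for a copper-related substrate of Mia40, at −0.79 (limma adjusted p = 0.0238). COX23, another cysteine-rich protein of this space, had values of 1.43, −0.35 and −0.66. It was high on replicate 1 and low on replicate 3, as MIA40 was, and so were GEM1 and MBA1 of other lists. COX17, also of this list, had values of −0.02, −0.08 and 0.39. The repeated spots of SOM1, PCP1, PHB2, COX18, SHE9 and CMC1 differed by 0.732, 0.611, 0.568, 0.751, 1.22 and 1.28 on average. Over all genes the median was 0.387, so on average the 2 spots of these genes differed more than usual. The gap was not alike on all arrays. For PCP1 it lay on replicate 1, with spots at −0.18 and −1.97, and its spots nearly matched on replicates 2 and 3. For PHB2 it was widest on replicate 2, at −0.39 and −1.70. What part the scatter has in these low calls was not tested. With the scatter group medians subtracted, 1 of the 50 was called high and 5 low (633 and 491 of all genes).

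**Figure D5:**
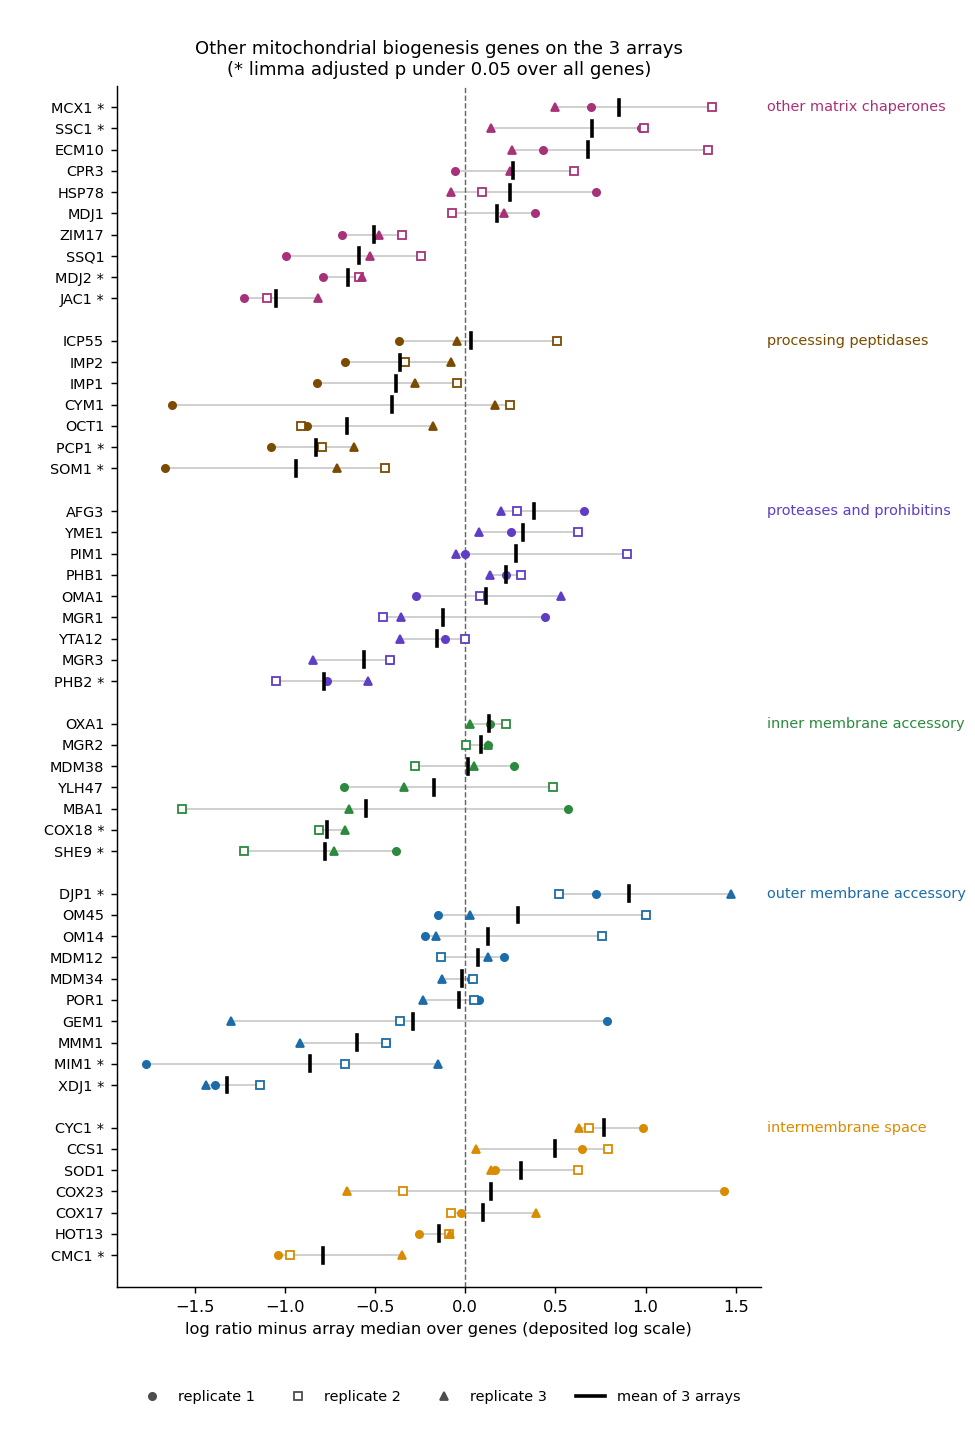
Log ratio minus the array median over genes (x axis, deposited log scale) for 50 other genes of mitochondrial biogenesis, grouped by list and ordered by mean. Circles, squares and triangles are replicates 1, 2 and 3, black bars are their means, and asterisks mark the genes past the threshold, 4 high and 10 low.

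Other mitochondrial genes are set beside the import genes, whose median was 0.27, as a description. Of all named genes 16.0% were called high and 12.5% low. Respiratory chain and ATP synthase genes had a median of 0.18, with 6 of 38 called high (15.8%) and 4 called low (10.5%). Mitochondrial ribosomal protein genes had a median of −0.14, with 3 of 68 high (4.4%) and 7 low (10.3%). Cytosolic ribosomal protein genes were displaced much farther than any of these, with a median of 2.12 and all 18 measured genes of a short list called high. The cytosolic chaperone genes had a median of 0.17, which was 0.33, 0.80 and −0.05 on the 3 arrays. HSP60 and HSP10 were likewise highest on replicate 2 and lowest on replicate 3. The arrays differed in the same order in their spread over all genes. The median absolute deviation from the array median was 0.514, 0.589 and 0.369 on replicates 1, 2 and 3. Whether the order of the chaperone values goes beyond this spread was not tested.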

How the data were processed

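The deposited table held 1 log ratio per spot and array for 13056 spots, treated here as log2 values. How the authors made these ratios (base, direction, scanner, background, normalization) is not given in the sources used here. Channel intensities were not analysed here. Platform annotation named 11138 spots with 1 gene symbol and left 1918 unnamed. All 31 measured members matched RefSeq (assembly R64) by gene ID, and that table supplied locus names and synonyms only. Spots of a gene were averaged, and the median over 5539 genes was then subtracted from each array. Limma 3.58.1 in R 4.3.3 (lmFit, eBayes) gave a two-sided test of each gene's mean over the arrays against 0, adjusted by Benjamini-Hochberg over all genes at a threshold of 0.05, after the fit was tested on simulated data. Named are all measured members, YAP1, and pathway genes past the threshold (up to 4 a list). ECM10, MDJ1, POR1, PHB1, COX23, COX17, GEM1 and MBA1 fall outside that rule and were chosen after their values were seen. The members and lists were chosen with earlier results of these data known. Alternatives covered the choice of spot, centring, blocks, scaling, a spot-difference filter, robust eBayes and leaving out arrays. Sequences were not used here.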

Additional observations from a re-analysis of the deposited data

How the results depend on the processing

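In 13 other settings, of which removing the scatter trend was added with the data in view, the sides that genes took rested on the centring. With no centring, 0 import genes were called high and 31 low (2 and 5258 of all genes), and the medians of the outer membrane, intermembrane space, inner membrane and matrix genes were −1.73, −1.93, −1.83 and −1.67. In that setting the sign changed for TOM20 (−1.57), TOM22 (−1.23), TOM40 (−1.35), TOM70 (−1.60), TOM71 (−1.04), SAM50 (−1.73), MIA40 (−1.55), ERV1 (−1.11), TIM17 (−1.35), TIM21 (−1.45), TIM44 (−1.04), TIM50 (−1.95), TIM54 (−1.61), PAM16 (−1.37), PAM17 (−1.83), MGE1 (−1.92), MAS2 (−1.67), HSP60 (−1.43) and HSP10 (−1.44). Centred on spots without a gene symbol at 4 low block positions, 24 import genes were called high and 0 low, and 3973 and 11 of all genes. The medians of the outer membrane, intermembrane space, inner membrane and matrix genes were then 1.25, 1.04, 1.15 and 1.30. There the sign changed for TOM6 (0.48), TOM7 (0.83), SAM35 (0.27), SAM37 (0.43), MDM10 (0.51), TIM12 (0.36), TIM13 (0.65), TIM18 (0.039), TIM22 (0.77), TIM23 (0.92), PAM18 (0.88) and MAS1 (0.51). Both shifts follow from the construction: 1 constant per array is added to every gene, and the unnamed spots were chosen for low values.

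With the first spot of each gene only, 2 import genes were called high and 1 low, and 601 and 413 of all genes. With the last spot only, 3 were high and 1 low (636 and 505 of all genes). The inner membrane median was then 0.091, and TIM22 (0.087), TIM50 (−0.0086) and PAM18 (0.069) changed sign. With block medians subtracted, 2 were called high and 2 low (848 and 624 of all genes). The outer and inner membrane medians were then −0.090 and −0.014, and SAM50 (−0.17), TIM50 (−0.014), PAM17 (−0.080) and MGE1 (−0.19) changed sign. Without genes whose spots lay over 1 unit apart, which removes SAM35, 3 of 24 were high and 1 low (711 and 537 of 4310 genes). In that setting TIM50 (−0.062) changed sign. TIM23 changed sign when arrays were scaled (0.027) and under quantile normalization (0.024). With the scatter trend removed, 1 was called high and 1 low (633 and 491 of all genes). The medians of the outer membrane and intermembrane space genes turned negative (−0.020 and −0.23), and the inner membrane median was 0.061. SAM50 (−0.34), TIM22 (0.32) and HSP60 (−0.043) changed sign. The causes of these changes were not tested.

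Leaving out 1 array at a time gave 0 to 5 import genes called high and 0 to 3 low, and 275 to 826 and 48 to 617 of all genes. The means ran from −0.025 to 0.59 for SAM50, −0.56 to 0.049 for TIM13, −0.23 to 1.04 for MIA40, −0.30 to 0.22 for TIM23, −0.039 to 0.22 for TIM50 and −0.36 to 0.69 for MGE1. The 50 other genes of mitochondrial biogenesis, 4 called high and 10 low and recounted with the data in view, gave 0 and 50 with no centring, and 32 and 0 against spots without a gene symbol. With the first spot they gave 1 and 5, with the scatter trend removed also 1 and 5, and with the last spot 0 were high (3 at an unadjusted p under 0.05 in limma). Without genes whose spots lay over 1 unit apart 5 were low, and leaving out 1 array gave 0 to 3 high and 0 to 7 low. Both strains share each array, so each log ratio already pairs them. The arrays form 1 group, and no other pairing was used. Spot brightness and background were not analysed here, which limits every value.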
